A study of Mus musculus with 15 samples.

Results

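Mouse myotubes made to express PGC-1a2 were compared directly with myotubes made to express PGC-1a4, another isoform of the same transcriptional coactivator. The differences are between 6 of the 15 arrays of the series, the 3 titled PGC-1a2 and the 3 titled PGC-1a4. They cover all 23332 transcript clusters, a cluster being the probes that read 1 locus. Standard errors and p-values come from a fit of all 15 arrays in 5 groups, so the other groups enter the estimate of spread. Values of the 3 arrays titled GFP are given for reference. All groups began as mouse primary myoblasts, the mononucleate precursors of muscle fibres, which were differentiated for 48 h into multinucleate myotubes and then transduced with adenovirus (multiplicity of infection 100). Fresh medium was given 12 h after transduction, and RNA was taken at about 60 h. The GFP virus carried GFP alone, and each isoform virus expressed GFP as well, from a promoter of its own, so that GFP and the adenovirus were common to the 3 groups. The labels give no mouse strain, no source animal and no viral promoter, and the isoforms were overexpressed in cultured cells. They do not say whether the 3 replicates of a group were separate cultures, so the tests reflect variation among these arrays, which may be technical only. The source name of the PGC-1a4 arrays reads isoform 1, in conflict with their titles, and the titles were followed.

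PGC-1a is a coactivator that binds transcription factors, among them nuclear receptors such as the oestrogen-related receptors and the PPARs, and raises transcription of their target genes. In skeletal muscle it is best known for driving mitochondrial biogenesis, oxidative metabolism and slow fibre genes. Its gene is transcribed from alternative promoters and spliced into several isoforms, and PGC-1a4 is a shortened form described in muscle as a regulator of growth through IGF1 and myostatin.

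Values are log2 signals as deposited, so a difference of 1 is a doubling of signal, and array medians lay between 5.476 and 5.659. Differences are PGC-1a2 minus PGC-1a4 with the moderated standard error of the limma fit (n = 3 arrays per group), and a cluster or gene was called where its adjusted p was under 0.05. The number of arrays limits the precision: an exact test of 3 arrays against 3 on a single gene cannot go below a p of 0.1. The calls therefore rest on the variance model of the fit. Most of it is each cluster's own spread within the 5 groups of all 15 arrays (10 residual degrees of freedom). A smaller part is shared over clusters (2.09 prior degrees of freedom). Arrays of the same isoform were closer to each other than to those of the other isoform. Their correlations over clusters, which are not independent replicates, were 0.991 to 0.992 within PGC-1a2, 0.989 to 0.992 within PGC-1a4 and 0.979 to 0.982 between them. The first principal component of the 6 arrays held 52.8% of the variance and placed PGC-1a2 between -33.1 and -28.3 and PGC-1a4 between 29 and 31.1.

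The introduced gene differed between the groups. Ppargc1a, which encodes all PGC-1a isoforms, read 8.90, 8.88 and 8.85 on the PGC-1a2 arrays, 10.61, 10.43 and 10.34 on the PGC-1a4 arrays, and 8.88, 8.12 and 8.58 on the GFP arrays. The PGC-1a4 values lay above every value of the other groups, while PGC-1a2 lay at the top of the GFP range. The difference was -1.59 ± 0.16 (SE, adjusted p = 1.1e-05), a 3-fold higher signal in PGC-1a4. Against GFP, PGC-1a2 differed by 0.35 ± 0.16, which did not pass (adjusted p = 0.22). The cluster pools probes, some of which an isoform may lack, so these signals do not compare the doses of the 2 isoforms. Of the related coactivators, Pprc1 was higher in PGC-1a2 by 0.85 ± 0.09 (adjusted p = 2.9e-05). Ppargc1b differed by 0.11 ± 0.06 (adjusted p = 0.19), with a 95% confidence interval from -0.01 to 0.24.

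The transcriptomes differed widely between the isoforms. In all 5878 of 23332 clusters (25.2%) were called, of which 2937 were higher in PGC-1a2 (12.6% of all clusters) and 2941 were higher in PGC-1a4 (12.6%). Differences of 2-fold or more were called in 364 clusters higher in PGC-1a2 (1.56%) and in 252 higher in PGC-1a4 (1.08%). The median difference over all clusters was -0.02, and the median size of a called difference was 0.49. Of the called clusters, 5837 (99.3%) had values that did not overlap between the isoforms, which held for 9120 of all 23332 clusters (39.1%). Calls were rare among dim clusters, at 3.17% in the lowest quartile of mean signal and 48.1% in the highest. For comparison with the same controls, 2177 clusters (9.33%) were called in PGC-1a2 against GFP and 3331 (14.3%) in PGC-1a4 against GFP.

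**Figure D1:**
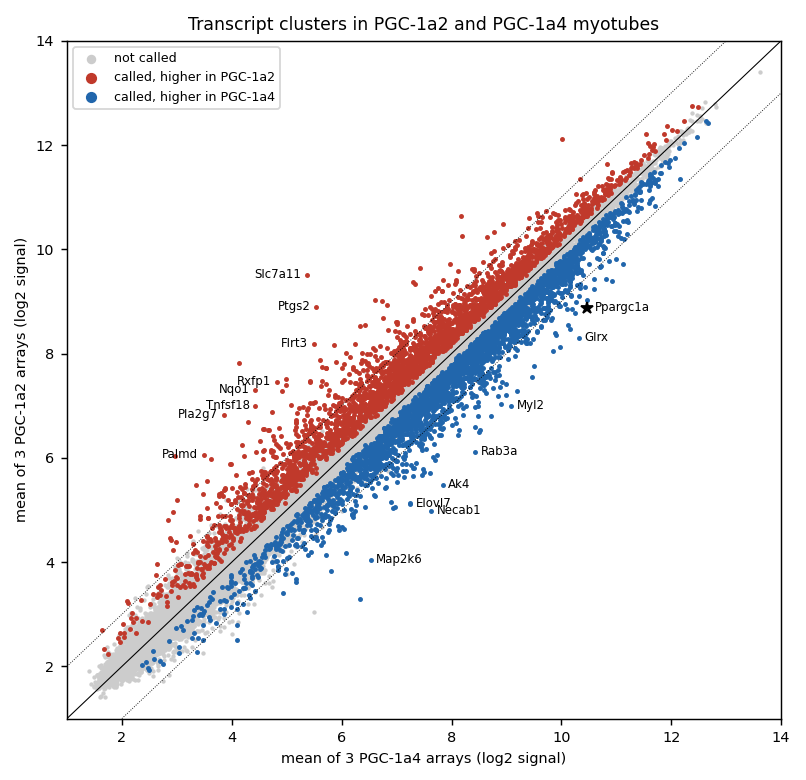
Mean log2 signal of each of the 23332 transcript clusters over the 3 PGC-1a4 arrays (x axis) and the 3 PGC-1a2 arrays (y axis), with clusters called higher in PGC-1a2 in red, called higher in PGC-1a4 in blue and the rest in grey; the solid line marks equal signal and the dotted lines a 2-fold difference. Slc7a11 and Ptgs2 stand farthest above the line, Necab1 and Map2k6 far below it, and the star marks Ppargc1a, 1.59 log2 units higher in PGC-1a4.

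GFP cultures lay between the 2 isoforms for most of these clusters. The GFP mean fell between the isoform means in 4908 called clusters (83.5%), against 34.2% of those not called, although a wide gap between 2 groups by itself makes a value in between more likely. Among the 616 clusters with 2-fold differences it fell between in 562 (91.2%). Of the 364 higher in PGC-1a2, GFP was nearer to PGC-1a2 in 219 and nearer to PGC-1a4 in 145. Of the 252 higher in PGC-1a4, GFP was nearer to PGC-1a2 in 184 and nearer to PGC-1a4 in 68. The differences from GFP quoted below share the GFP arrays and the isoform arrays with the direct comparison, so they place a gene rather than test it again.

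The largest difference was in Slc7a11, which encodes the cystine-glutamate exchanger that supplies cysteine for glutathione. It read 9.05, 9.67 and 9.77 in PGC-1a2, 5.95, 5.38 and 4.80 in PGC-1a4, and 9.23, 8.96 and 9.04 in GFP. PGC-1a4 stood alone, and the PGC-1a2 and GFP values overlapped. The signal was 17.5-fold higher in PGC-1a2 (4.13 ± 0.24 log2, adjusted p = 2.4e-07). Ptgs2, the inducible cyclooxygenase of prostaglandin synthesis, read 8.52, 9.06 and 9.10 in PGC-1a2, 5.62, 5.34 and 5.66 in PGC-1a4, and 8.35, 7.62 and 8.19 in GFP. Here too PGC-1a4 was far below the other groups, and the difference was 3.35 ± 0.21, or 10.2-fold. Unlike in Slc7a11, every PGC-1a2 value lay above the GFP values (0.84 ± 0.21 against GFP, adjusted p = 0.024). Nqo1, an antioxidant quinone reductase, was 7.41-fold higher in PGC-1a2 (2.89 ± 0.20), and Hspa1a, an inducible heat shock chaperone, 5.32-fold (2.41 ± 0.10). Neither passed in PGC-1a2 against GFP: Nqo1 differed by -0.16 ± 0.20 (adjusted p = 0.74) and Hspa1a by 0.01 ± 0.10 (adjusted p = 0.98). In PGC-1a4 they differed from GFP by -3.05 and -2.41. Atp13a4, a cation ATPase gene higher in PGC-1a2 by 2.54 ± 0.12, had the same arrangement.

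Other genes near the top had the reverse arrangement, with PGC-1a2 standing apart from GFP. Pla2g7, a phospholipase that degrades platelet-activating factor, read 6.68, 7.10 and 6.68 in PGC-1a2, 3.82, 3.82 and 3.90 in PGC-1a4, and 4.17, 4.18 and 4.28 in GFP. The PGC-1a4 values were below 3.93, the lower quartile of all array values, where background can hold a signal up, and the difference was 7.83-fold (2.97 ± 0.10). Palmd, which encodes palmdelphin, was higher in PGC-1a2 by 2.56 ± 0.21 and by 2.29 ± 0.21 over GFP. Its PGC-1a4 values, 3.20 to 3.76, and its GFP values, 3.71 to 3.85, were also below that quartile. Between those extremes were genes for which both isoforms differed from GFP in opposite directions. They include Flrt3, a leucine-rich repeat adhesion protein (2.69 ± 0.15 between the isoforms), the relaxin receptor gene Rxfp1 (2.64 ± 0.15), Neto2, an auxiliary subunit of kainate receptors (2.41 ± 0.16), St8sia4, a polysialic acid synthase (2.39 ± 0.14), the ephrin receptor gene Epha7 (2.30 ± 0.10) and Renbp (2.27 ± 0.15). Tnfsf18, the ligand of the immune receptor GITR (2.57 ± 0.20), and the serpin gene Serpinb9b (2.37 ± 0.17) belong with them and complete the 15 largest differences in this direction.

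Genes higher in PGC-1a4 were led by Necab1, a neuronal calcium-binding protein, and Map2k6, the kinase that activates p38 MAP kinase. Necab1 read 7.96, 7.59 and 7.33 in PGC-1a4, 4.95, 5.01 and 4.97 in PGC-1a2, and 5.59, 5.33 and 5.32 in GFP. Map2k6 read 6.58, 6.54 and 6.47 in PGC-1a4, 4.06, 4.01 and 4.09 in PGC-1a2, and 4.64, 4.58 and 4.86 in GFP. For both, PGC-1a4 was the group that stood apart and PGC-1a2 lay below every GFP value. The differences were -2.65 ± 0.13 (6.29-fold) and -2.48 ± 0.12 (5.57-fold). Ak4, a mitochondrial adenylate kinase, differed by -2.38 ± 0.17, at -1.44 from GFP in PGC-1a2 and 0.93 in PGC-1a4. Rab3a, a small GTPase of regulated secretion (-2.32 ± 0.09), Islr (-1.91 ± 0.12), Tmem241 (-1.92 ± 0.13) and the kinase gene Sgk3 (-1.91 ± 0.14) also had GFP between the isoforms.

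In a second set PGC-1a2 was close to GFP and PGC-1a4 was above both. The fatty acid elongase gene Elovl7 read 7.41, 7.37 and 6.99 in PGC-1a4, 5.06, 5.23 and 5.08 in PGC-1a2, and 5.03, 4.60 and 5.12 in GFP. The PGC-1a2 and GFP values overlapped, and the isoforms differed by -2.13 ± 0.15 (4.38-fold). Cend1, named for cell cycle exit and neuronal differentiation (-2.10 ± 0.16), the glutaredoxin gene Glrx (-2.02 ± 0.12), Pipox, a peroxisomal sarcosine oxidase (-1.98 ± 0.15), and Stard5, a sterol-binding protein (-1.91 ± 0.06), were arranged in the same way. Of these Stard5 alone passed in PGC-1a2 against GFP, at -0.27 ± 0.06 (adjusted p = 0.011). Periostin, the matrix protein encoded by Postn, was the clearest exception: it read 6.56, 6.85 and 6.99 in PGC-1a2, 8.79, 8.59 and 8.76 in PGC-1a4, and 8.71, 8.32 and 8.53 in GFP. Here PGC-1a2 was the group that stood apart (-1.91 ± 0.12 between the isoforms). Nubpl, an assembly factor of respiratory complex I, differed by -1.9 ± 0.35, with a wide spread in GFP, whose values ran from 5.56 to 6.75.

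**Figure D2:**
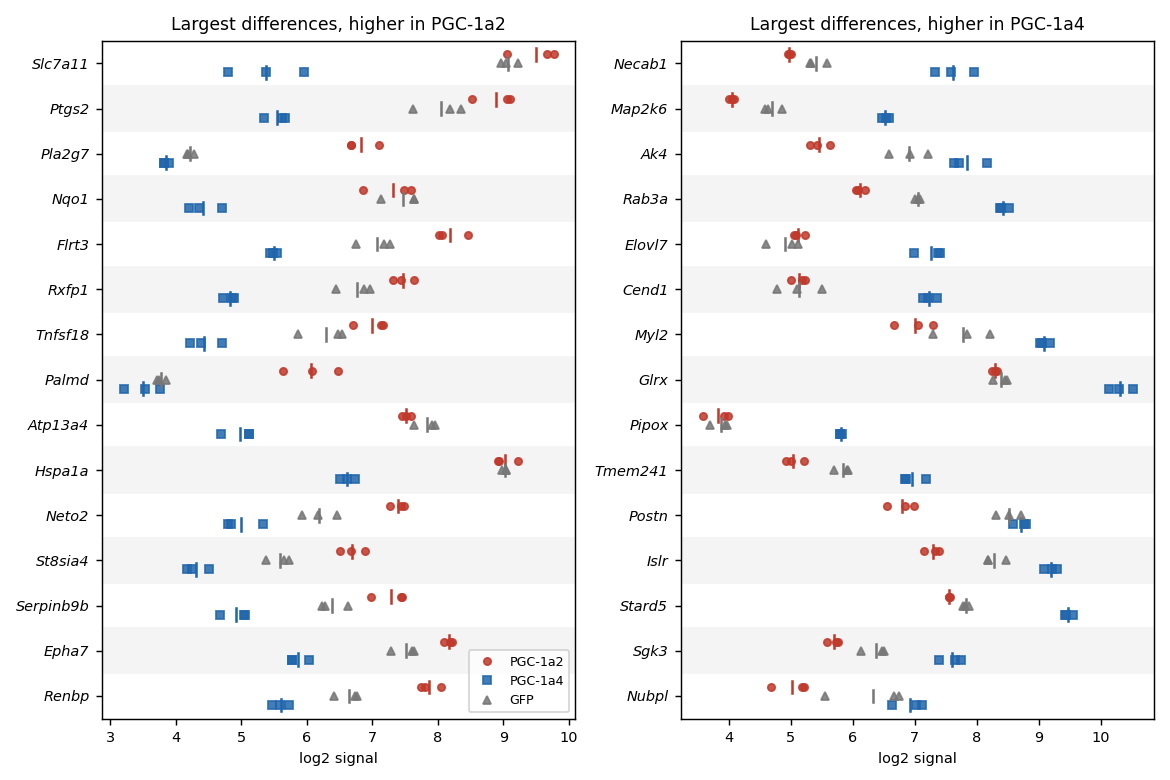
Log2 signal (x axis) of the 15 genes with the largest called differences in each direction, with every array as a point (PGC-1a2 red circles, PGC-1a4 blue squares, GFP grey triangles) and the mean of 3 as a vertical bar. Slc7a11 spans 4.80 to 9.77. Only genes whose PGC-1a2 and PGC-1a4 values do not overlap were eligible, so the gap between those points is a condition of the choice.

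Gene lists of muscle biology were read against the shares over all 14860 genes, each represented by 1 cluster. Of these 33.1% were called, 16.6% higher in PGC-1a2 and 16.5% higher in PGC-1a4, with a median difference of -0.03. The lists are described by their counts and medians, with no test of the list itself. Members and lists were chosen with earlier results of these data known, so a share above that of all genes is no independent support.

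Many genes of energy metabolism were higher in PGC-1a4. In the tricarboxylic acid cycle, which oxidises acetyl groups in mitochondria, 12 of 19 measured genes were called higher in PGC-1a4 and 0 higher in PGC-1a2, with a median of -0.33. Idh3a, the catalytic subunit of the NAD-dependent isocitrate dehydrogenase, read 10.97, 10.92 and 10.88 in PGC-1a4, 9.54, 9.34 and 9.33 in PGC-1a2, and 9.98, 9.88 and 9.93 in GFP. The 3 groups did not overlap and the isoforms differed by -1.52 ± 0.07 (2.87-fold, adjusted p = 6.1e-08). Sucla2 (-0.77 ± 0.09), Ogdh (-0.74 ± 0.06) and citrate synthase, Cs (-0.28 ± 0.06), were among the others, while the malate dehydrogenase gene Mdh2 differed by -0.06 ± 0.05 (adjusted p = 0.48). The list also counts Idh1 (-1.21 ± 0.11), whose enzyme is cytosolic and peroxisomal and not part of the mitochondrial cycle. In fatty acid oxidation 14 of 21 genes were higher in PGC-1a4, with a median of -0.53. They included Acaa2, the mitochondrial thiolase (-1.07 ± 0.09), the carnitine carrier gene Slc25a20 (-0.97 ± 0.11) and the acyl-CoA dehydrogenase genes Acadvl (-0.80 ± 0.07) and Acadm (-0.68 ± 0.06). The 1 gene higher in PGC-1a2 was the acyl-CoA thioesterase gene Acot2, by 0.34 (adjusted p = 0.035, and up to 0.15 under the alternatives). Cpt1a, the gate of fatty acid entry into mitochondria, was higher in PGC-1a4 by 0.62 ± 0.06, and both isoforms were above GFP, by 0.60 in PGC-1a2 and by 1.22 in PGC-1a4.

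Breakdown of branched-chain amino acids had the highest share of called genes among the 31 pathway lists. Of its 22 measured genes 19 were higher in PGC-1a4 and 0 in PGC-1a2, with a median of -0.50. Bckdhb, a subunit of the branched-chain ketoacid dehydrogenase that commits leucine, isoleucine and valine to oxidation, read 8.90, 8.90 and 8.89 in PGC-1a4, 7.19, 7.04 and 6.90 in PGC-1a2, and 7.76, 7.77 and 7.71 in GFP. GFP lay between the isoforms without overlap, and the difference of -1.85 ± 0.10 was 3.61-fold. The other subunits of the complex, Bckdha (-0.53 ± 0.09) and Dbt (-0.46 ± 0.07), differed less. Mccc1 of leucine breakdown (-1.5 ± 0.12), Pcca and Mmut of propionate metabolism (-1.21 and -1.15), the ketone-body enzyme gene Oxct1 (-1.24 ± 0.07) and Ppm1k, the phosphatase that activates the dehydrogenase (-1.41 ± 0.13), moved in the same direction. The list's median was -0.35 in PGC-1a2 against GFP and 0.23 in PGC-1a4 against GFP. Of 8 genes of the malate-aspartate shuttle and kynurenine aminotransferases, 6 were higher in PGC-1a4, with Kyat1 at -1.28 ± 0.12 and the aspartate carrier gene Slc25a12 at -0.86 ± 0.05. Kyat3 (-0.46 ± 0.13, adjusted p = 0.016) missed the threshold when PGC-1a2 replicate 3 (adjusted p = 0.066) or PGC-1a4 replicate 1 (adjusted p = 0.058) was left out.

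The respiratory chain, whose complexes pass electrons to oxygen and make ATP, differed by smaller steps. Of 48 measured genes 22 were higher in PGC-1a4 and 0 in PGC-1a2, and the median was -0.22. Ndufb11 and Ndufa6 of complex I differed most, by -1.15 ± 0.15 and -0.95 ± 0.12, and Sdha of complex II by -0.53 ± 0.06. Cox6a2, a muscle subunit of cytochrome oxidase, differed by -0.60 ± 0.08. Glucose metabolism followed the same direction, with 12 of 20 genes higher in PGC-1a4, 0 higher in PGC-1a2 and a median of -0.37. These were the phosphofructokinase genes Pfkp (-1.29 ± 0.07), Pfkl (-0.92) and Pfkm (-0.58 ± 0.07), hexokinase 1, Hk1 (-0.91 ± 0.07), the muscle glycogen synthase gene Gys1 (-0.94 ± 0.06) and the pyruvate dehydrogenase kinases Pdk1 (-1.12 ± 0.07) and Pdk2 (-1.05 ± 0.08), which restrain glucose oxidation, among others. The muscle glucose transporter gene Slc2a4 differed by -0.36 and was not called.

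**Figure D3:**
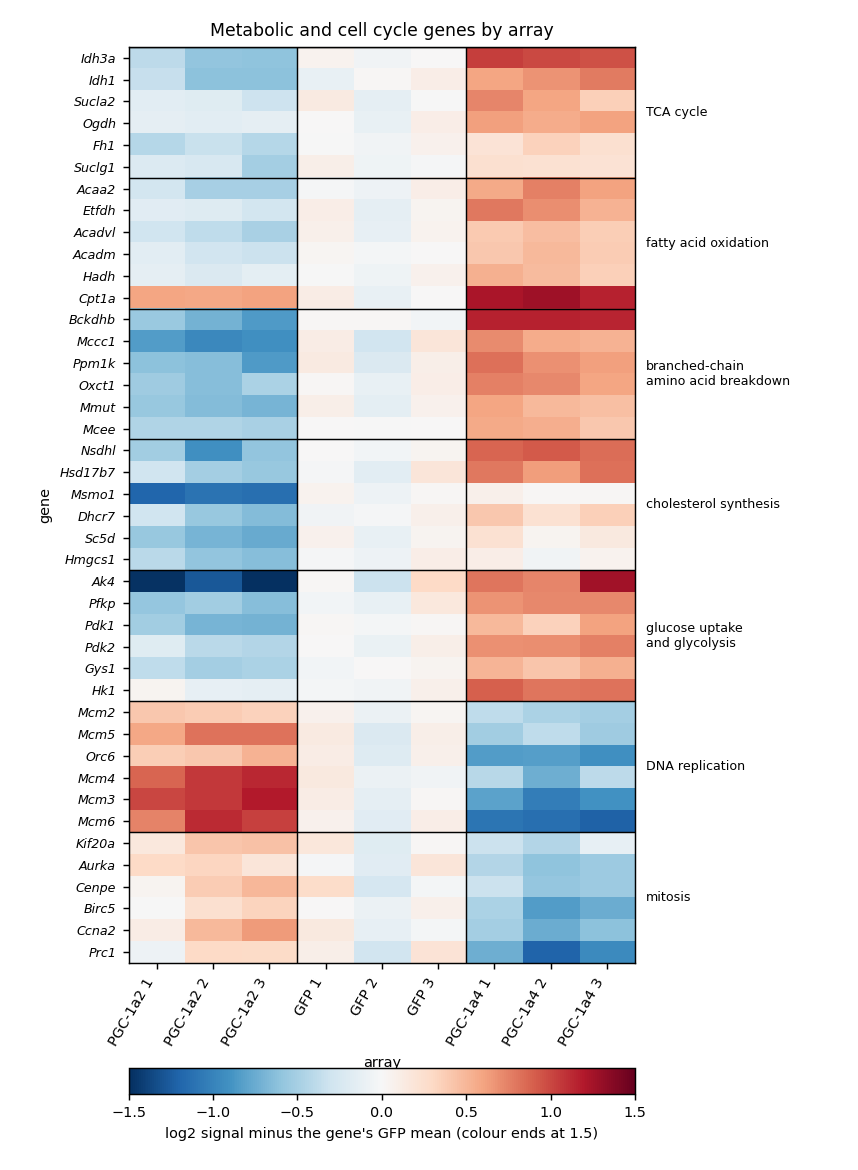
Log2 signal of each array minus the gene's GFP mean (colour, with the scale ending at 1.5 in either direction) for up to 6 genes with the smallest p from each of 7 lists, with PGC-1a2 arrays on the left, GFP in the middle and PGC-1a4 on the right. Idh3a and Bckdhb are above GFP in the 3 PGC-1a4 arrays and below it in the 3 PGC-1a2 arrays, Mcm3 and Mcm6 are the reverse, and Cpt1a is above GFP in both isoforms.

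The transcription factors that PGC-1a works with were part of the difference. Esrra, the oestrogen-related receptor alpha gene, read 8.09, 8.13 and 8.16 in PGC-1a4, 6.65, 6.48 and 6.48 in PGC-1a2, and 7.02, 7.03 and 7.01 in GFP. The groups were separate, with GFP nearer to PGC-1a2, and the isoforms differed by -1.59 ± 0.08 (3.02-fold, adjusted p = 1e-07). Its relatives Esrrb (-0.96 ± 0.11) and Esrrg (-0.90 ± 0.13) were higher in PGC-1a4 too, but for Esrrg PGC-1a4 overlapped GFP (-0.02 ± 0.13) and PGC-1a2 was below it (-0.92 ± 0.13). Across 22 factors of mitochondrial biogenesis and the mitochondrial genome, 10 were higher in PGC-1a4 and 4 in PGC-1a2, and the median was -0.07. The mitofusin gene Mfn1 (-1.11 ± 0.09) and the fission factor gene Mff (-0.53 ± 0.06) were among the 10. Tfam, which packages mitochondrial DNA, differed by 0.16 ± 0.10 (adjusted p = 0.32), and the nuclear respiratory factor gene Nrf1 by 0.02. Of 31 nuclear receptors and cofactors 11 were higher in PGC-1a2 and 5 in PGC-1a4, with a median of 0.03. Higher in PGC-1a2 were the orphan receptor gene Nr2f1 (1.29 ± 0.13), the deacetylase gene Sirt1 (1.01 ± 0.08), Nr4a2 (0.94 ± 0.09) and the retinoid receptor gene Rxrg (0.80 ± 0.11). The thyroid hormone receptor genes Thra (-0.74 ± 0.09) and Thrb (-0.65) were higher in PGC-1a4.

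Lipid synthesis split by pathway. Of 18 genes of cholesterol synthesis 13 were higher in PGC-1a4 and 0 in PGC-1a2, with a median of -0.54. Nsdhl (-1.56 ± 0.09), Hsd17b7 (-1.21 ± 0.10) and Msmo1 (-1.17 ± 0.07), which act on sterol intermediates late in the pathway, led the list, and Hmgcs1, near its start, differed by -0.57 ± 0.08. Msmo1 read 8.59, 8.67 and 8.65 in PGC-1a2, 9.85, 9.80 and 9.79 in PGC-1a4, and 9.83, 9.70 and 9.80 in GFP. In this gene PGC-1a4 overlapped GFP and PGC-1a2 alone was lower, whereas Nsdhl differed from GFP by -0.68 in PGC-1a2 and by 0.88 in PGC-1a4. Srebf2, the transcription factor of the pathway, differed by 0.18 and was not called. Of 19 genes of fatty acid synthesis 7 were higher in PGC-1a4 and 3 in PGC-1a2. The stearoyl-CoA desaturase genes differed in opposite directions. Scd1 read 7.68, 7.49 and 7.25 in PGC-1a2 against 5.56, 5.09 and 5.62 in PGC-1a4, while Scd2 read 9.66, 9.37 and 9.26 in PGC-1a2 against 10.60, 10.43 and 10.74 in PGC-1a4. The differences were 2.05 ± 0.16 and -1.16 ± 0.12, and PGC-1a4 overlapped GFP in Scd1 (-0.13 ± 0.16, adjusted p = 0.74). PPAR target genes were mixed, with 4 of 19 higher in PGC-1a2 and 5 in PGC-1a4. Angptl4, a secreted inhibitor of lipoprotein lipase, was higher in PGC-1a2 by 1.83 ± 0.20, and lipoprotein lipase itself, Lpl, by 0.88 ± 0.07. The pyruvate dehydrogenase kinase gene Pdk4 was higher in PGC-1a4 by 0.95 ± 0.13, and both isoforms were above GFP, by 0.71 in PGC-1a2 and 1.66 in PGC-1a4.

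**Figure D4:**
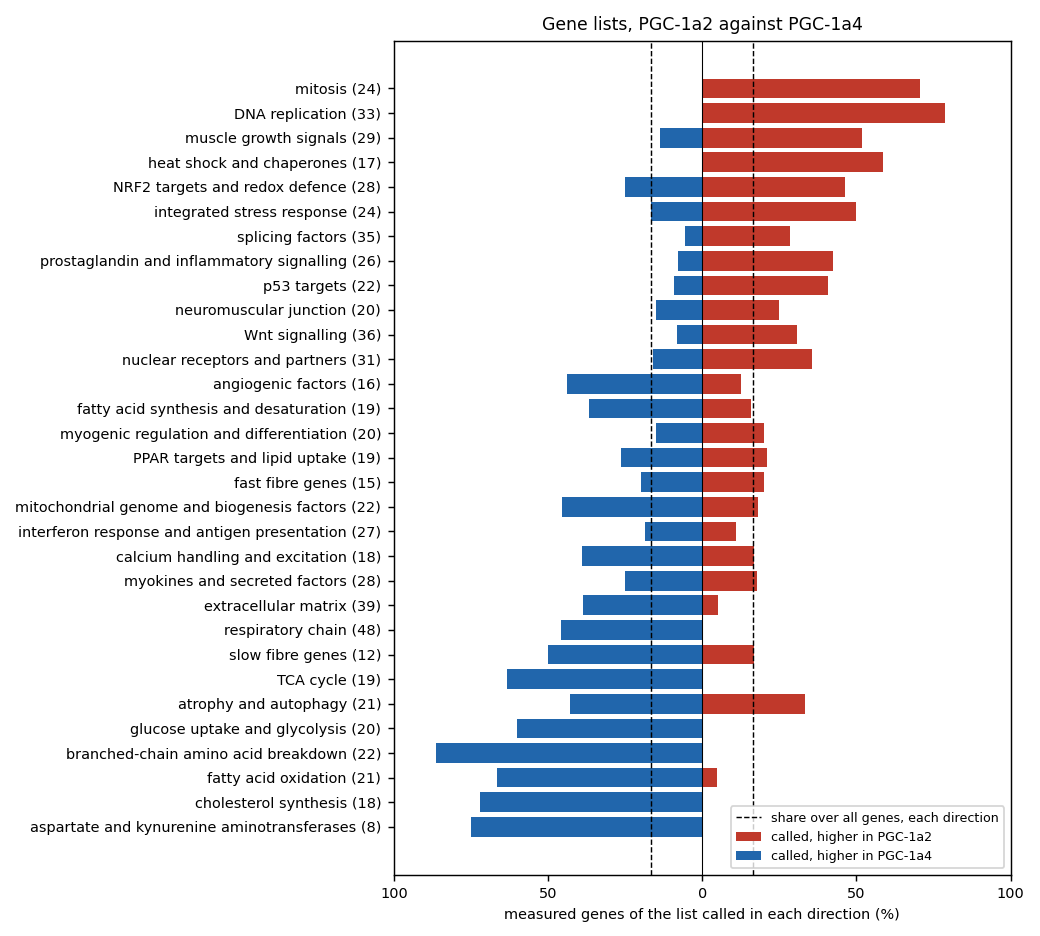
Share of the measured genes of each of 31 lists (number measured in parentheses) called higher in PGC-1a2 (red, to the right) or higher in PGC-1a4 (blue, to the left), in percent, ordered by the list's median difference; the dashed lines mark the shares over all genes, 16.6% and 16.5%. DNA replication (26 of 33 genes) and mitosis (17 of 24) lie on the PGC-1a2 side, and branched-chain amino acid breakdown (19 of 22) and cholesterol synthesis (13 of 18) on the PGC-1a4 side.

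Cell division genes were higher in PGC-1a2. Of 33 measured genes of DNA replication 26 were higher in PGC-1a2 and 0 in PGC-1a4, with a median of 0.55. The MCM genes encode the 6 subunits of the helicase that opens replication origins, and all 6 were called. Mcm6 read 7.53, 7.90 and 7.81 in PGC-1a2, 5.69, 5.66 and 5.57 in PGC-1a4, and 6.85, 6.62 and 6.89 in GFP. Mcm3 read 7.64, 7.70 and 7.83, then 5.83, 5.60 and 5.73, and 6.75, 6.5 and 6.66 in the same order. In both genes GFP lay near the middle and the 3 groups were separate. The differences were 2.11 ± 0.12 (4.31-fold) for Mcm6, 2.01 ± 0.10 (4.03-fold) for Mcm3, 1.53 ± 0.11 for Mcm4, 1.22 ± 0.10 for Mcm5, 1.01 ± 0.13 for Mcm7 and 0.83 ± 0.06 for Mcm2. The S-phase cyclin gene Ccne2 (1.53 ± 0.20), Orc6 of the origin recognition complex (1.29 ± 0.10) and the licensing factor gene Cdt1 (1.09) were also higher, while Ccne1 (-0.08) and E2f1 (0.21) were not called. The mitosis list had 17 of 24 genes higher in PGC-1a2 and 0 in PGC-1a4, with a median of 0.55. Prc1, a midzone microtubule bundler (1.13 ± 0.18), and cyclin A2, Ccna2 (1.03 ± 0.13), led it, and Cdk1 (0.12) and the proliferation antigen gene Mki67 (0.48) were not called. The replication list stood 0.30 above GFP in PGC-1a2 and 0.35 below it in PGC-1a4 by its medians, and the mitosis list 0.18 above and 0.41 below.

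These genes are transcribed in dividing cells, and in RNA from a whole culture fewer cells of a type and less RNA per cell cannot be told apart. Of 12 markers of undifferentiated myoblasts 3 were higher in PGC-1a2 and 5 in PGC-1a4. Their summed signal, on the log2 scale, was 12.02 to 12.11 in PGC-1a2, 12.04 to 12.14 in PGC-1a4 and 12 to 12.11 in GFP. The largest differences among them were Heyl (-1.36) and Notch3 (-1.14), both higher in PGC-1a4. Itga7 (-0.45) and Sdc4 (-0.34, adjusted p up to 0.15 under the alternatives) went the same way, and Cxcr4 (0.84) and Megf10 (0.71) the opposite way. The satellite cell factor genes were divided, Myf5 at 0.92 ± 0.07 and Pax7 at -0.43 ± 0.06. The part of remaining myoblasts in the cell cycle difference was not tested.

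The promoters of replication genes carried sites of the E2F type, the factors that switch on S-phase genes. In RefSeq promoters on GRCm38.p6, the 250 bases before each start of a gene were searched on both strands for TTTGGCGC, TTTCCCGC, TTTGCCGC and TTTCGCGC, which can overlap one another on opposite strands. A gene with several starts counted as matched if any of its windows held a match. Of 28 replication genes with a known promoter, 10 held a match (35.7%). The share was 2.16% of all 27025 genes and 3.09% of the 11894 measured on the arrays. The 10 were Mcm6, Mcm5, Mcm7, Pola1, Orc1, Cdc25a, Rfc3, Dnmt1, Uhrf1 and Cdc6, and all but Cdc6 (0.33, adjusted p = 0.067) were called higher in PGC-1a2. Most of the whole list was called that way too (26 of 33), so these calls do not set the genes with a match apart. Uhrf1 (0.34, adjusted p = 0.048) differed by 0.20 without PGC-1a2 replicate 2 (adjusted p = 0.2), and Dnmt1 (0.28, adjusted p = 0.012) had an adjusted p up to 0.078 under the alternatives. A match describes these letters only and is no measure of binding. The stretches of the 3 MCM genes are shown because these were the helicase genes with a match. Each is the gene's own strand, with the matches in capitals, and overlapping matches run together. Mcm7 had 2 windows, of which only 1 held a match, and that window is the source of its stretch. The Mcm6 stretch lies at chr1:128359720-128359840 on the minus strand and holds 3 matches, that of Mcm5 at chr8:75109331-75109392 on the plus strand with 2, and that of Mcm7 at chr5:138172016-138172073 on the minus strand with 1.
Mcm6: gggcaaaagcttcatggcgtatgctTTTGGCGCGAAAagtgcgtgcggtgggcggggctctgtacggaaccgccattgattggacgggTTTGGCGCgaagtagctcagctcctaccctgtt
Mcm5: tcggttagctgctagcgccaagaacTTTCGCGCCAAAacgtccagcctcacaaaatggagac
Mcm7: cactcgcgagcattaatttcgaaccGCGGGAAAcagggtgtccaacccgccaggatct

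Among genes of redox defence more were higher in PGC-1a2 than in PGC-1a4. Of 28 measured genes that include the targets of NRF2, the factor that answers oxidative stress, 13 were higher in PGC-1a2 and 7 in PGC-1a4, with a median of 0.21. Haem oxygenase 1, Hmox1, read 9.13, 9.49 and 9.48 in PGC-1a2, 7.37, 7.27 and 7.26 in PGC-1a4, and 9.07, 8.78 and 9.09 in GFP. The PGC-1a4 arrays were more than a doubling below all others, and the isoforms differed by 2.07 ± 0.11 (4.19-fold, adjusted p = 1.4e-07). Srxn1, which repairs peroxiredoxins (1.28 ± 0.10), Gclc, the catalytic subunit of glutathione synthesis (1.19 ± 0.08), and catalase, Cat (0.67 ± 0.06), went with Slc7a11 and Nqo1. The NRF2 gene Nfe2l2 itself was higher by 0.22 ± 0.07 (adjusted p = 0.024, and up to 0.12 under the alternatives), and Keap1, its repressor, differed by 0.11 without a call. The 7 genes higher in PGC-1a4 were Glrx, the mitochondrial peroxiredoxin gene Prdx3 (-0.70 ± 0.07), the mitochondrial superoxide dismutase gene Sod2 (-0.59 ± 0.08), Gpx3, Prdx2, and Glrx2 and Txn2, whose products act in mitochondria. Of these Prdx2 (-0.34) and Txn2 (-0.20) lost the call under some alternatives, with adjusted p up to 0.15 and 0.11.

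Chaperone genes went the same way, with 10 of 17 higher in PGC-1a2, 0 in PGC-1a4 and a median of 0.28. After Hspa1a came the co-chaperone genes Dnaja1 (1.19 ± 0.15), Hsph1 (1.02 ± 0.08) and Dnajb1 (0.99 ± 0.11). For Hsph1 the values were 10.55, 10.82 and 10.84 in PGC-1a2, 9.78, 9.78 and 9.60 in PGC-1a4, and 10.78, 10.66 and 10.76 in GFP. PGC-1a2 overlapped GFP and PGC-1a4 lay below both. The list's median against GFP was 0.01 in PGC-1a2 and -0.22 in PGC-1a4. The abundant chaperone genes Hspa5 (0.09), Hspa9 (0.10) and Hsp90aa1 (0.05) were not called.

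The integrated stress response, which slows translation and induces ATF4 targets, was mixed. Of its 24 measured genes 12 were higher in PGC-1a2 and 4 in PGC-1a4, with a median of 0.20. Besides Slc7a11 these were Sesn2 (1.33 ± 0.13), the arginine transporter gene Slc7a1 (1.18 ± 0.08), the pseudokinase gene Trib3 (1.17 ± 0.15), the transcription factor gene Atf3 (1.13 ± 0.12) and Atf4 (0.51 ± 0.08), among others. The 4 higher in PGC-1a4 were Fgf21, Atf5 (-0.69 ± 0.09), Aldh1l2 and Slc7a5. Fgf21, a secreted stress hormone, read 7.24, 7.44 and 7.04 in PGC-1a2, 8.77, 8.29 and 7.99 in PGC-1a4, and 8.87, 8.73 and 8.95 in GFP. PGC-1a2 was the lowest group, with a difference of -1.11 ± 0.19 (adjusted p = 0.0007). Asns (0.05), Chac1 (-0.09) and Ddit3 (-0.39), also targets of this response, were not called, so the list did not move as a block.

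The binding letters of ATF4 with its C/EBP partners, TGATGNAA on either strand, were found in the promoter window of 9 of 22 of these genes (40.9%), against 3.91% of all 27025 genes. The 9 differ in what they did: Slc7a11, Atf3, Pck2 (0.36) and Nupr1 (0.31) were called higher in PGC-1a2, Fgf21 was called higher in PGC-1a4, and Asns, Chac1, Vldlr and Herpud1 were not called. The calls of Pck2 and Nupr1 were lost under some alternatives, with adjusted p up to 0.12 and 0.15. Slc7a11, Atf3 and Fgf21 are shown because the same letters stand before genes that differed in opposite directions. All 3 lie on the minus strand and are written on the gene's strand with matches in capitals. They are at chr3:50443628-50443704 for Slc7a11, which holds 2 matches, chr1:191183411-191183468 for Atf3 and chr7:45615597-45615654 for Fgf21.
Slc7a11: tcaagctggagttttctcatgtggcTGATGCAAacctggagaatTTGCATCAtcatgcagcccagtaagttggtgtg
Atf3: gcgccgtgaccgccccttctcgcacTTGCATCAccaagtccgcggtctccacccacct
Fgf21: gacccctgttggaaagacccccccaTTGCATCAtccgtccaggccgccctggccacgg

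Of the 9 motifs searched, the E-box CAGCTG, which myogenic factors of the MYOD family bind, was frequent in muscle lists. It was in 6 of 11 fast fibre genes and 6 of 11 slow fibre genes (54.5% each), in 5 of 10 calcium handling genes (50%), in 6 of 13 neuromuscular junction genes (46.2%) and in 4 of 14 myogenic regulators (28.6%), against 14.7% of all genes. It was also in 7 of 14 PPAR target genes (50%). These lists had called genes in both directions. The antioxidant element TGACNNNGC was in 4 of 23 redox genes (17.4%), in 4 of 10 angiogenic genes (40%) and in 7 of 27 nuclear receptor and cofactor genes (25.9%), against 11.5% of all genes. Each of the other 5 motifs matched at most 1 gene in the lists named here with it. The oestrogen-related receptor element TNAAGGTCA was in 1 of 38 respiratory chain genes, in 0 of 18 genes of the tricarboxylic acid cycle, in 0 of 17 of fatty acid oxidation and in 0 of 19 of branched-chain amino acid breakdown, against 1.3% of all genes. The sterol element TCACNCCAC was in 1 of 14 cholesterol genes against 1.22%, and the heat shock element (GAA, TTC and GAA, or TTC, GAA and TTC, each 2 bases apart) in 0 of 13 chaperone genes against 0.514%. The cyclic AMP element TGACGTCA was in 1 of 22 stress response genes against 1.77%, and the PPAR element (AGGNCA and AGGTCA, 1 base apart) in 0 of 14 PPAR target genes against 0.0999%. No match means only that these letters are not in this window.

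**Figure D5:**
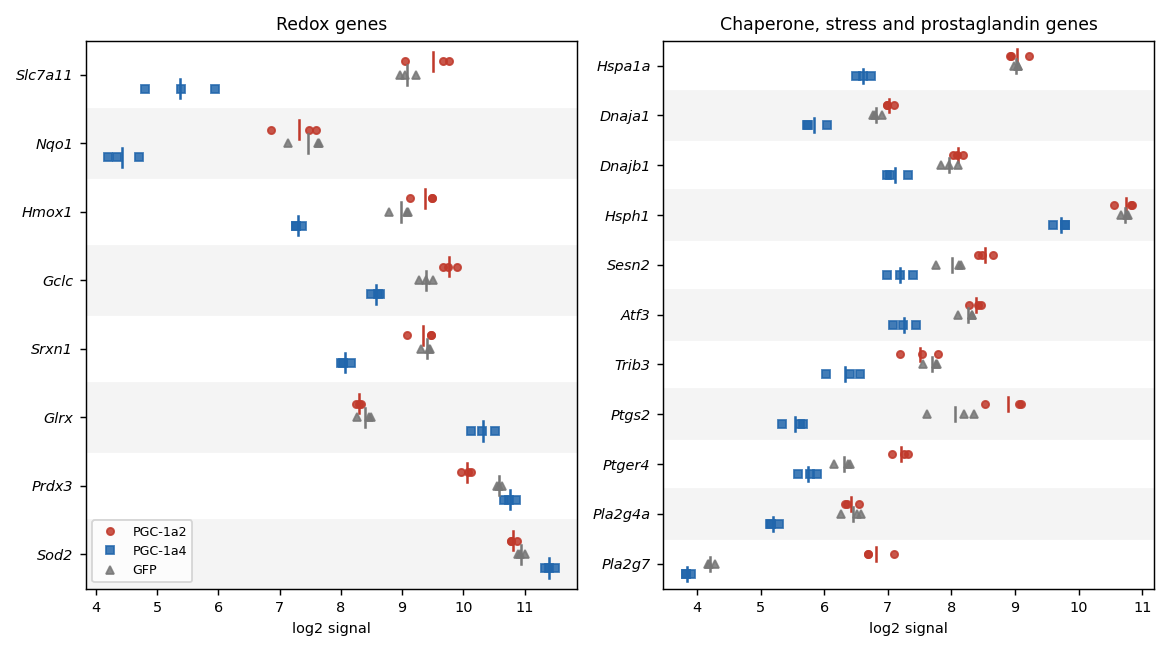
Log2 signal (x axis) of redox genes (left) and of chaperone, stress response and prostaglandin genes (right), with every array as a point (PGC-1a2 red circles, PGC-1a4 blue squares, GFP grey triangles) and the mean of 3 as a vertical bar. PGC-1a2 and GFP lie together above PGC-1a4 in genes such as Hspa1a and Nqo1, while Glrx, Prdx3 and Sod2 are highest in PGC-1a4 and Pla2g7 is high in PGC-1a2 alone.

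Prostaglandin and inflammatory genes were higher in PGC-1a2 in 11 of 26 measured genes and higher in PGC-1a4 in 2, with a median of 0.11. The prostaglandin path from membrane lipid to receptor was represented at several steps, mostly but not only by genes higher in PGC-1a2. The prostaglandin E synthase gene Ptges2 was called higher in PGC-1a4 (-0.47, adjusted p = 0.00077). The cytosolic phospholipase gene Pla2g4a, which releases arachidonic acid, read 6.33, 6.55 and 6.36 in PGC-1a2, 5.29, 5.14 and 5.16 in PGC-1a4, and 6.58, 6.26 and 6.51 in GFP, a difference of 1.22 ± 0.12. Next to Ptgs2 downstream were the prostaglandin synthase genes Ptgds (0.76 ± 0.06) and Ptgis (0.69), the degrading dehydrogenase gene Hpgd (0.93) and the receptor gene Ptger4 (1.46 ± 0.10), while the receptor genes Ptger1, Ptger2 and Ptger3 were not called (-0.08, -0.11 and -0.05). Selp and Tnfrsf12a were high in PGC-1a2 alone. Selp, the adhesion molecule P-selectin, read 6.93, 6.85 and 6.83 in PGC-1a2, 4.54, 4.88 and 4.75 in PGC-1a4, and 4.50, 4.76 and 4.52 in GFP. Tnfrsf12a, the receptor of the cytokine TWEAK, read 9.67, 9.81 and 9.66, then 7.74, 8.03 and 8.16, and 8, 7.82 and 7.81 in the same order. PGC-1a4 overlapped GFP in both, and the isoforms differed by 2.14 ± 0.10 and 1.73 ± 0.12.

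Targets of p53 were higher in PGC-1a2 in 9 of 22 genes and in PGC-1a4 in 2, with a median of 0.10. The polo-like kinase genes Plk3 (1.80 ± 0.09) and Plk2 (1.52 ± 0.09) and the growth arrest genes Btg2 (0.89 ± 0.11) and Gadd45a (0.87 ± 0.10) were called. The cell cycle inhibitor gene Cdkn1a was not: it differed by 0.02 ± 0.07 (adjusted p = 0.92), with a 95% confidence interval from -0.14 to 0.17. Interferon response genes, which adenovirus can induce, were near the background, with 3 of 27 higher in PGC-1a2, 5 in PGC-1a4 and a median of -0.08. The immunoproteasome gene Psmb10 (-0.87 ± 0.07) and Stat2 (-0.82 ± 0.10) were higher in PGC-1a4, and Rsad2 (0.53 ± 0.10) was higher in PGC-1a2. Ddx58 (0.50 ± 0.13, adjusted p = 0.015) was also called higher in PGC-1a2, but not under every alternative. Without PGC-1a2 replicate 1 or PGC-1a4 replicate 2, 1 gene of the list rather than 3 was higher in PGC-1a2.

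Growth signals differed in both brakes and drivers. Of 29 measured genes 15 were higher in PGC-1a2 and 4 in PGC-1a4, with a median of 0.33. Myostatin, the secreted inhibitor of muscle growth encoded by Mstn, read 9.16, 9.13 and 8.72 in PGC-1a2, 6.87, 6.84 and 6.49 in PGC-1a4, and 8.25, 8.20 and 8.50 in GFP. All 3 groups were separate, with PGC-1a2 above GFP by 0.69 and PGC-1a4 below it by 1.58, and the isoforms differed by 2.27 ± 0.14 (4.82-fold, adjusted p = 3.6e-07). Follistatin, Fst, which binds and blocks myostatin, read 10.64, 10.41 and 10.38 in PGC-1a2, 8.85, 8.95 and 9.03 in PGC-1a4, and 10.14, 9.99 and 10.08 in GFP. It stood in the same order as myostatin, and differed by 1.53 ± 0.08. The growth factor gene Igf1 read 6.04, 6.13 and 5.97 in PGC-1a2, 5.39, 5.49 and 5.17 in PGC-1a4, and 5.53, 5.59 and 5.08 in GFP. PGC-1a4 overlapped GFP, and PGC-1a2 was higher than PGC-1a4 by 0.69 ± 0.16 (adjusted p = 0.0069). Targets of BMP and TGF-beta signals, Id1 (1.23 ± 0.17), Id3 (1.17 ± 0.14), Id2 (1.02 ± 0.14) and the inhibitory Smad gene Smad7 (0.90 ± 0.07), were higher in PGC-1a2. Adgrg1, the adhesion receptor also called GPR56, was the largest difference in the other direction at -1.86 ± 0.08: it read 10, 9.89 and 10.04 in PGC-1a4, 8.32, 8.03 and 8.01 in PGC-1a2, and 8.85, 8.80 and 8.90 in GFP.

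Atrophy and autophagy genes were divided, with 7 of 21 higher in PGC-1a2 and 9 in PGC-1a4. The autophagy kinase gene Ulk1 (-0.91 ± 0.05), the mitophagy receptor gene Bnip3 (-0.90 ± 0.10) and Foxo3 (-0.50 ± 0.05) were higher in PGC-1a4. The autophagy adaptor gene Sqstm1 (0.79 ± 0.07), Gabarapl1 (0.85 ± 0.08) and the muscle ubiquitin ligase genes Fbxo30 (0.66 ± 0.08) and Fbxo32 (0.57 ± 0.09) were higher in PGC-1a2.

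Genes of the contractile apparatus differed in both directions. Of 15 fast fibre genes 3 were higher in each direction, or 20% and 20% beside 16.6% and 16.5% of all genes. Myoz1 led those higher in PGC-1a2 (1.07 ± 0.13), followed by the fast calcium pump gene Atp2a1 (0.52 ± 0.08) and the troponin gene Tnnc2 (0.28 ± 0.06). Casq1 (-0.30 ± 0.10, adjusted p = 0.047) missed the threshold under 10 of 18 alternatives, and differed by -0.19 without PGC-1a4 replicate 3 (adjusted p = 0.19). Of 12 slow fibre genes 6 were higher in PGC-1a4 and 2 in PGC-1a2, with a median of -0.27. The slow and ventricular myosin light chain gene Myl2 read 9.18, 9.02 and 9.06 in PGC-1a4, 7.29, 7.05 and 6.67 in PGC-1a2, and 8.22, 7.29 and 7.85 in GFP. PGC-1a4 was above both other groups, which touched at 7.29, and the isoforms differed by -2.08 ± 0.21 (4.24-fold). Ankrd2 (-0.75 ± 0.12), the slow tropomyosin gene Tpm3 (-0.66 ± 0.06) and myoglobin, Mb (-0.49 ± 0.09), were higher in PGC-1a4, while the slow troponin genes Tnni1 (-0.15) and Tnnc1 (-0.11) were not called. The regulators of the slow calcium pump differed in opposite directions: sarcolipin, Sln, was higher in PGC-1a2 by 1.57 ± 0.12 and phospholamban, Pln, higher in PGC-1a4 by 1.04 ± 0.19. In all, 3 of 18 calcium handling genes were higher in PGC-1a2 and 7 in PGC-1a4.

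Of the myogenic regulators Myf6 (1.01 ± 0.08), Myf5 (0.92 ± 0.07) and Myod1 (0.51 ± 0.09) were higher in PGC-1a2. Myogenin, Myog, read 9.94, 9.80 and 9.68 in PGC-1a2, 9.88, 9.94 and 10.16 in PGC-1a4, and 10.22, 10.21 and 10.10 in GFP. The isoforms overlapped (-0.19 ± 0.09, adjusted p = 0.19). Over the list 4 of 20 genes were higher in PGC-1a2 (20%) and 3 in PGC-1a4 (15%), with a median of -0.05. These shares were near the 16.6% and 16.5% of all genes. At the neuromuscular junction 5 of 20 were higher in PGC-1a2 (25%) and 3 in PGC-1a4 (15%), with a median of 0.04. Acetylcholinesterase, Ache, which ends the transmitter's action, read 6.19, 6.43 and 6.13 in PGC-1a2, 4.23, 3.98 and 4.38 in PGC-1a4, and 4.64, 5.18 and 4.42 in GFP. PGC-1a2 was highest, by 2.05 ± 0.19 over PGC-1a4 and by 1.5 ± 0.19 over GFP, and PGC-1a4 against GFP did not pass (-0.55, adjusted p = 0.074). The receptor kinase gene Musk was higher in PGC-1a4 by 0.47 ± 0.06, and the acetylcholine receptor genes Chrna1 (-0.04), Chrnb1 (-0.11) and Chrnd (0.05) were not called.

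Secreted factors went both ways, and called matrix genes were mostly higher in PGC-1a4. Of 16 angiogenic genes 7 were higher in PGC-1a4 and 2 in PGC-1a2, with a median of -0.03 that equals the median over all genes. Vascular endothelial growth factor, Vegfa, read 10.22, 10.22 and 10.18 in PGC-1a4, 9.36, 9.45 and 9.51 in PGC-1a2, and 9.68, 9.76 and 9.64 in GFP. The 3 groups were separate, and the isoforms differed by -0.77 ± 0.07 (1.7-fold). Vegfb (-0.69 ± 0.07) and Fgf1 (-1.01 ± 0.08) went the same way, and Angpt1 (0.79 ± 0.13) the opposite way. Of 39 matrix genes 15 were higher in PGC-1a4 and 2 in PGC-1a2, with a median of -0.17. They include fibronectin, Fn1 (-1.16 ± 0.11), the collagen genes Col6a1 (-1.36 ± 0.08) and Col4a1 (-0.73 ± 0.06) and the protease inhibitor genes Timp1 (-0.82) and Timp2 (-0.71 ± 0.05), besides Postn. The fibrillar collagens that mark fibroblasts, Col1a1 (-0.10), Col1a2 (0.29) and Col3a1 (0.02), were not called. Of 28 myokines 5 were higher in PGC-1a2 (17.9%) and 7 in PGC-1a4 (25%), with a median of -0.15, and 3 rather than 5 were higher in PGC-1a2 without PGC-1a4 replicate 1. Il15 (-1.47 ± 0.21) and Metrnl (-0.87 ± 0.10) were higher in PGC-1a4. Il6 (1.39 ± 0.19) was higher in PGC-1a2, with PGC-1a4 values of 2.76 to 3.18 that lay below the lower quartile of the arrays.

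Wnt pathway genes were higher in PGC-1a2 in 11 of 36 (30.6%) and in PGC-1a4 in 3 (8.33%), with a median of 0.03. The shares over all genes were 16.6% and 16.5%. The R-spondin receptor gene Lgr5 read 7.83, 7.79 and 7.56 in PGC-1a2, 5.80, 5.62 and 5.70 in PGC-1a4, and 5.84, 5.5 and 5.73 in GFP. It was raised in PGC-1a2 alone, by 2.02 ± 0.11 over PGC-1a4. The R-spondin gene Rspo3 (1.45 ± 0.13) and Axin2, a feedback target of the pathway (1.37 ± 0.15), were also higher, as were Sfrp2 (0.77) and Sfrp1 (0.58). Those higher in PGC-1a4 were Dkk3 (-0.5), Wif1 (-0.34) and Lrp5 (-0.17). The calls of Sfrp1, Wif1 and Lrp5 were lost under some alternatives. Of 35 splicing factor genes 10 were higher in PGC-1a2 and 2 in PGC-1a4, with a median of 0.15. The polypyrimidine tract-binding genes Ptbp2 (0.96 ± 0.09), Ptbp1 (0.59 ± 0.09) and Ptbp3 (0.50 ± 0.07) were all higher in PGC-1a2, as was Mbnl3 (0.91 ± 0.12), and Srsf3 was lower (-0.59, adjusted p = 0.023, and up to 0.1 under the alternatives). A single value per cluster gives the summed signal of a gene's probes and does not show which exons were used.

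The labelled cell type was checked with marker genes. Of 10 measured myotube markers 1 was higher in each direction, and their summed signal was 14.47 to 14.54 in PGC-1a2 and 14.45 to 14.55 in PGC-1a4. Alpha-actin, Acta1, differed by -0.06 ± 0.05 (adjusted p = 0.46) and desmin, Des, by 0.10 ± 0.05 (adjusted p = 0.24). No endothelial marker of 12 was called, fibroblast markers were called for 1 of 11 in each direction, and 5 of those 11 were below the lower quartile in both groups. Adipocyte markers were higher in PGC-1a2 in 2 of 9 (22.2%) and macrophage markers in 2 of 11 (18.2%), near the 16.6% of all genes. The medians of these lists were -0.05 and 0.05. The macrophage markers called were Mrc1 (0.92 ± 0.08) and Itgam (0.4), while the leucocyte antigen gene Ptprc (0.13 ± 0.07, adjusted p = 0.24) and Csf1r (0.05) were not called. Markers of Schwann cells and neurons were higher in PGC-1a2 in 4 of 9, and their summed signal was 9.92 to 10.15 in PGC-1a2, 8.79 to 8.93 in PGC-1a4 and 9.62 to 9.75 in GFP. Pmp22, a myelin protein that is also made outside nerve, differed by 2.00 ± 0.11, and Map2 (1.03), Nefl (0.57) and Stmn2 (0.57) were the other 3. The Schwann cell factor gene Sox10 (-0.03), S100b (-0.06) and Mbp (-0.06) were not called. The part of other cell types in the gene differences was not tested.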

How the data were processed

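RNA was labelled as sense-strand cDNA and measured on whole-transcript arrays, 3 in each of 5 groups. The authors deposited log2 signals per transcript cluster, used here as given. They were made with Partek, per the submitters' processing notes. Its version and settings, the normalization and the genome build were not given in the sources used here, and cluster positions are left out. Of 23332 clusters 14996 carried 1 gene symbol (14860 genes), 1019 several and 7317 none. For a gene with several clusters, the one with the highest mean stood for it.

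All 15 arrays were fitted together in limma 3.58.1 (R 4.3.3; lmFit, eBayes; 10 residual and 2.09 prior degrees of freedom), with 1 mean per group. Tests were two-sided, with p-values adjusted by Benjamini-Hochberg over all clusters, called under 0.05. The fit was tested on simulated data. Named genes are the 15 largest called differences per direction with 1 symbol and no overlap (predicted and repeated loci passed over), members of 31 pathway and 7 marker lists (717 of 859 genes measured), and the PGC-1 family. Members and lists were chosen with earlier results of these data known. Replicate numbers were not treated as pairs: deviations of same-numbered PGC-1a2 and PGC-1a4 arrays correlated at -0.04, -0.14 and -0.06. Over the 30 same-numbered pairs of all groups the correlations ran from -0.22 to 0.36, with 11 above 0.1. Promoters are from RefSeq on GRCm38.p6, with 250 bases before each start of a gene searched for 9 motifs. Alternatives covered normalization, filters, the samples and terms of the fit, and each array left out.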

Additional observations from a re-analysis of the deposited data

How the results depend on the processing

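The number of called clusters, 5878, stayed within 1.5 times under every alternative run. It was 6294 after quantile normalization, 5182 after median centring, 6158 and 6059 with filters at the 25th and 50th percentile, 5422 among clusters with 1 symbol, 5204 from the arrays of the 2 isoforms alone, 6116 without the GFP group, 6205 with a variance trend and 6809 with array weights. With each PGC-1a2 or PGC-1a4 array left out in turn it ran from 4891 to 5242, with 2393 to 2663 higher in PGC-1a2 and 2439 to 2653 higher in PGC-1a4. The share of calls higher in PGC-1a2 was 50%, and 46.4% after median centring. A covariate for each array's interquartile range gave 7039 calls, and leaving out GFP replicate 2, chosen after seeing the data, 6332. With the replicate number as a block 5945 clusters were called, and the Ppargc1a difference was -1.59 (adjusted p = 1.9e-05). The labels do not say whether the numbers pair the samples. Of 494 called genes of the lists and families followed through all alternatives, 413 were called in each, 81 missed the threshold in at least 1 and 0 reversed. Leaving out 1 array moved 5 of them by over 1.5 times: Fos to -0.90, Casq1 to -0.19, Uhrf1 to 0.20, Dnajb9 to 0.26 and Wif1 to -0.23. Among lists, mitosis had 11 genes higher in PGC-1a2 with the filter at the 50th percentile, which left fewer genes tested, fatty acid synthesis up to 6 rather than 3, and slow fibres 10 rather than 6 higher in PGC-1a4 with a variance trend. Counts of 0 to 3 genes in several other lists moved by 1 or 2, and the cause was not tested. Dim clusters limit what can be called, and with no scanner files used here other background corrections were not run.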

Other observations

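Further gene families were read after the largest differences had been seen, so their counts describe these arrays and carry no test of the family. The background is 16.6% of genes higher in PGC-1a2 and 16.5% higher in PGC-1a4. Of 29 measured genes of peroxisomes, the organelles that shorten very long and branched fatty acids, 17 were higher in PGC-1a4 and 1 in PGC-1a2, with a median of -0.48. Beside Pipox these were the coenzyme A hydrolase genes Nudt19 (-1.83 ± 0.13) and Nudt7 (-1.22 ± 0.08), Phyh of phytanic acid breakdown (-1.66 ± 0.10), the peroxisomal protease gene Lonp2 (-0.85 ± 0.06) and the fatty acid transporter gene Abcd3 (-0.48 ± 0.06), among others. Its relative Abcd2 was the 1 gene higher in PGC-1a2, by 1.06 ± 0.18. It read 5.81, 5.18 and 5.46 in PGC-1a2, 4.50, 4.42 and 4.36 in PGC-1a4, and 4.33, 4.10 and 4.68 in GFP.

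Of 75 measured genes of axon guidance and synaptic adhesion 30 were higher in PGC-1a2 and 4 in PGC-1a4, with a median of 0.13. The guidance receptor genes Robo2 (1.70 ± 0.13), Robo1 (1.48 ± 0.10) and Unc5c (1.69 ± 0.08), the adhesion molecule genes Nrcam (2.03 ± 0.11) and Lrrn3 (2.20 ± 0.15), and the semaphorin gene Sema3e (1.07 ± 0.07) with its receptor gene Plxnd1 (0.93 ± 0.06) joined Flrt3, Neto2 and Epha7. The 4 higher in PGC-1a4 were Sema7a (-0.80 ± 0.08), Ntn4, Ntn1 and Ephb4.

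Kinase signalling genes went both ways. A set of 11 genes held p38 MAP kinases, their upstream kinases and the downstream kinases Mapkapk2 and Mapkapk3. Of these 4 were higher in PGC-1a4, led by Map2k6 and followed by Mapkapk2 (-0.78 ± 0.09), Mapk14 (-0.38 ± 0.05) and Map2k4 (-0.25 ± 0.06). The 3 higher in PGC-1a2 were Mapk12 (0.73 ± 0.08), Map3k6 (0.30) and Map2k3 (0.25). The calls of Map3k6 and Map2k3 were lost under some alternatives, with adjusted p up to 0.13 and 0.077. Of 11 dual-specificity phosphatase genes, which switch MAP kinases off, 5 were higher in PGC-1a2, with Dusp4 at 1.47 ± 0.13 and Dusp2 at 1.03 ± 0.12, and Dusp3 was higher in PGC-1a4 (-0.59 ± 0.10). Of 14 immediate early genes 5 were higher in PGC-1a2 and 3 in PGC-1a4: Fosl1 differed by 1.53 ± 0.12, and Fos (-1.38 ± 0.31) and Egr1 (-1.10 ± 0.12) were on the other side. Fos read 7.40, 6.10 and 5.79 in PGC-1a4 against 4.99, 5.10 and 5.06 in PGC-1a2, so that its first PGC-1a4 array stood high. With all arrays its adjusted p was 0.005, and without that array the difference was -0.90 (adjusted p = 0.0015). Its call was lost in 1 of 18 alternatives (adjusted p = 0.057).

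Of 135 genes with more than 1 cluster, 1 was called in opposite directions. The clusters of Zbtb44 differed by 0.50 ± 0.11 (adjusted p = 0.0052) and -0.64 ± 0.14 (adjusted p = 0.0035).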
